A study of Mus musculus with 6 samples.

Results

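The genes that encode the chains of collagens and laminins were followed in the ATAC-seq peak lists of neural stem cell (NSC) cultures. They were taken as the protein-coding genes on chromosomes 1 to 19 of the GENCODE M21 annotation whose symbol is that of a collagen chain (*Col*, a type number and an alpha chain number) or of a laminin alpha, beta or gamma chain. This gave 53 of 20807 genes, 42 collagens and 11 laminins. ATAC-seq marks open chromatin, where a transposase can cut and tag the DNA. The cultures came from the subependymal zone (SEZ), the neurogenic niche that lines the lateral ventricles, of C57BL/6J mice 10 weeks old. Every library carried the same homozygous CRISPR-Cas9 deletion of *Srr2*, an enhancer that lies downstream of *Sox2*, and as no wild-type cells enter the comparison nothing can be assigned to the deletion. In the proliferating state (PROLIF) cells had 2 days in vitro (DIV) on Matrigel with mitogen, and in the early differentiating state (DIFF) they had 1 further day without mitogens and with 2% serum (2 + 1 DIV), so that mitogen removal and serum cannot be told apart. Each state had 3 libraries, numbered 1, 2 and 4. The labels do not say which founder strain or animal a number stands for, so the spread between them may be partly technical.

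Collagens are triple helices of 3 alpha chains, and laminins are cross-shaped trimers of 1 alpha, 1 beta and 1 gamma chain. Fibrillar collagens form the fibres of connective tissue, whereas type IV collagen and laminins build the sheets of basement membranes, on which integrins and dystroglycan anchor cells. In the SEZ, NSCs touch the basement membrane of blood vessels and laminin-rich deposits called fractones. Matrigel is itself a basement membrane extract rich in laminin and type IV collagen, so the cells were in contact with these proteins whatever their own genes did.

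The lists held 60006 to 82741 peaks in the PROLIF libraries and 70728 to 88039 in the DIFF libraries, and DIFF replicate 4 was the deepest by its background pileup (6.01 reads against 2.85 to 3.63 in the other 5). All 6 NSC markers (among them *Sox2*, *Nes* and *Egfr*) had a promoter peak in every library. This also held for 1 of 5 endothelial, 2 of 6 mural and fibroblast, 2 of 5 microglia and 1 of 3 measured oligodendrocyte markers. In the same lists, in that order, 3, 1, 2 and 1 markers had no promoter peak in any library. Peaks that overlapped by at least 1 bp in any library were joined into regions. A region counted as occupied in a library that listed a peak there, and a missing peak means a signal under the caller's threshold, not closed chromatin. The input numbers that the caller wrote into peak names fell into 2 ranges. PROLIF replicates 1 and 4 and DIFF replicate 1 had 227 to 297, and PROLIF replicate 2 and DIFF replicates 2 and 4 had 606 to 614. A difference without overlap over all 6 libraries holds inside each range by construction, which is no check of it. An effect of the range was not tested. Strength was given as the percentile of the peak's −log10 p among all autosomal peaks of the same library, with 100 for the strongest.

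Regions were collected over each gene body plus 20 kb on either side. They were called promoter within 3 kb of an annotated transcript start of the gene, exon or intron by the position of the summit, and distal outside the gene body. Promoters of other genes in these windows (47 regions) were set aside. The 53 windows then held 524 regions, 115 promoter, 15 exon, 308 intron and 86 distal, or 61.9 regions per Mb, beside 60.9 per Mb over the windows of all protein-coding genes. The most regions lay around *Col19a1* (31), *Col22a1* (24), *Lamb3* (23), *Col25a1* (22) and *Col27a1* (20). Collagen and laminin genes were long, with a median of 114 kb against 17.6 kb for all genes. Of the 524 regions, 145 (27.7%) were occupied in all 6 libraries and 151 (28.8%) in only 1, against 37.5% and 26.6% of the regions of all genes. The largest shortfall was at promoters, where 38.3% of the member regions and 59.0% of those of all genes were occupied in all 6 libraries. For introns the shares were 24.0% and 26.01%, and for distal regions 27.9% and 30.0%.

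Most collagen and laminin genes had an accessible promoter in both states. A promoter peak was listed for 46, 42 and 39 of the 53 genes in PROLIF replicates 1, 2 and 4 and for 44, 38 and 43 in DIFF replicates 1, 2 and 4 (42.3 ± 3.51 and 41.7 ± 3.21, SD, n = 3), and the states overlapped. By library these were 86.8, 79.2 and 73.6% of the 53 genes in PROLIF and 83.0, 71.7 and 81.1% in DIFF. The shares over all genes were lower in every library, at 72.4, 70.0 and 68.7% in PROLIF and 70.7, 70.0 and 72.4% in DIFF. In at least 1 library a promoter peak was listed for 47 of the 53 genes, against 76.0% of all genes. In all 6 libraries it was listed for 33 genes (62.3%), where the share over all genes was 65.7%. With promoters of 1 kb the count was 26. The strongest promoter belonged to *Col11a1* (chr3:114030540-114220718, plus strand), which encodes a chain of the fibrillar type XI collagen that sets fibril diameter. Its percentiles were 99.0, 98.6 and 98.8 in PROLIF and 97.7, 98.5 and 98.7 in DIFF, at 11.6 to 14.4 times the local background. *Lama1*, the alpha chain of the laminin of early embryonic basement membranes and of Matrigel, followed at 91.4 to 98.6. *Col9a3*, a chain of the fibril-associated type IX collagen, lay at 90.4 to 93.4, *Col5a2* at 86.7 to 94.8 and *Lamc1*, the gamma chain shared by most laminins, at 85.2 to 94.5. The range of *Col11a1* overlapped that of *Lama1* and lay above those of the other 3, which overlapped each other.

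**Figure D1:**
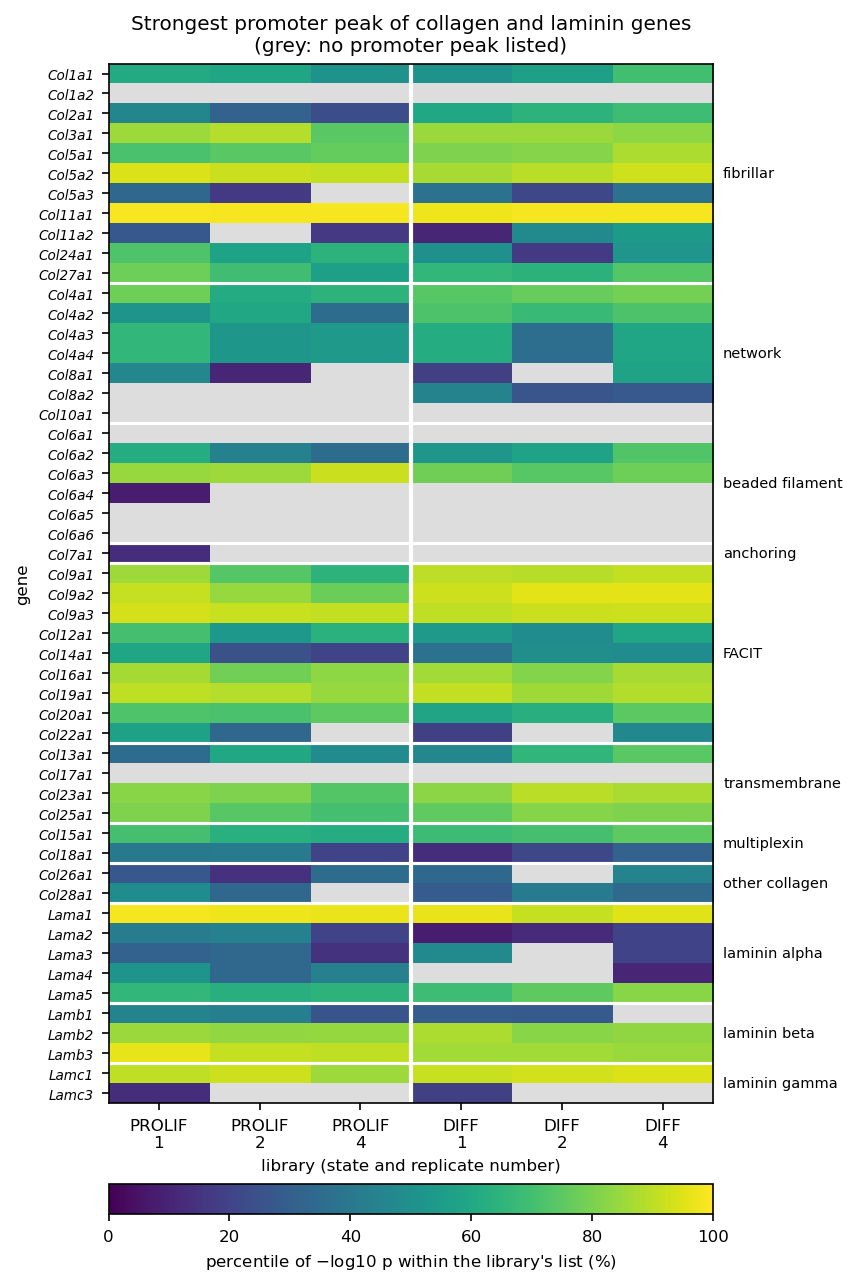
The percentile (%) of the strongest promoter peak is drawn for 52 of the 53 genes (rows, by protein group) in each library (columns), and grey cells mark libraries that listed no promoter peak. *Col11a1* and *Lama1* were bright in all 6 columns, *Col8a2* was coloured only in the 3 DIFF columns, and 6 genes were grey throughout.

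The promoter of the classical fibroblast collagen type I was split between its chains. *Col1a1*, which encodes the alpha 1 chain, had a promoter peak in every library (percentiles 61.1, 58.9 and 51.4 in PROLIF, 51.4, 56.7 and 69.9 in DIFF), whereas *Col1a2*, which encodes the alpha 2 chain of the same trimer, had none in any. Of the mural and fibroblast markers, *Pdgfra* and *Acta2* had a promoter peak in every library. *Rgs5* had one in 2 libraries of each state and *Pdgfrb* in 2 DIFF libraries alone. *Dcn* had 1 promoter peak in 1 library and *Lum* none. The 6 genes with no promoter peak in any library were *Col1a2*, the beaded filament chains *Col6a1*, *Col6a5* and *Col6a6*, the hypertrophic cartilage collagen *Col10a1* and the hemidesmosome collagen *Col17a1*. All of them still had 1 to 7 occupied regions elsewhere in their windows over the 6 libraries together. *Col7a1*, which encodes the anchoring fibrils of skin, had a single region, a promoter peak in PROLIF replicate 1 (percentile 12.9).

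By protein group, all 6 libraries listed a promoter peak for 8 of the 11 fibrillar collagens, 8 of the 9 fibril-associated (FACIT) collagens, 4 of the 7 network-forming collagens, 2 of the 6 beaded filament collagens, 3 of the 4 transmembrane collagens and both multiplexins (*Col15a1* and *Col18a1*). Among the laminins these were 3 of the 5 alpha, 2 of the 3 beta and 1 of the 3 gamma genes. Every laminin gene had a promoter peak in at least 1 library. Laminin promoter peaks numbered 11, 10 and 10 in the PROLIF libraries and 10, 7 and 9 in the DIFF libraries, so that the states met at 10. For collagens the numbers were 35, 32 and 29 in PROLIF and 34, 31 and 34 in DIFF.

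The largest difference in occupied regions between the states was at *Lama4* (chr10:38965515-39110188, plus strand), which encodes laminin alpha 4, a chain best known from the basement membranes of blood vessels. Its window held 7 occupied regions in each of the 3 PROLIF libraries and 0, 2 and 3 in DIFF replicates 1, 2 and 4 (7 ± 0 against 1.67 ± 1.53, SD, n = 3). No DIFF library reached the PROLIF number, and the two-sided exact permutation p was 0.1, the smallest that 3 libraries against 3 allow. The region over its start site, chr10:38965425-38965839, was occupied in all PROLIF libraries (percentiles 35.3, 19.9 and 43.4) and in no DIFF library. So was chr10:39106572-39107172, close to the 3′ end and near the start of an internal non-coding transcript (51.7, 33.8 and 43.4). An intronic region 79314 bp from the start, chr10:39044448-39044960, had percentiles of 80.8, 46.8 and 65.0 in PROLIF and was listed in DIFF replicate 2 alone, at 16.9. The only DIFF promoter peak was in replicate 4, with its summit at -510 bp from the start, at percentile 10.7. The states did not overlap at *Lama4* under any alternative run for it, and the mean difference ranged from -4.50 to -6.00 regions. Leaving out a library or comparing same-numbered libraries could hardly undo such a gap, so these alternatives are no check of it. The difference was -6.00 regions with lists of equal length and -5.33 with q of at most 0.01.

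Of the 5 endothelial markers, 1 had promoter peaks in the same libraries as the *Lama4* start region. The promoter of this gene, *Pecam1*, had peaks in all 3 PROLIF libraries (percentiles 51.7, 44.1 and 55.1) and in no DIFF library. *Kdr* had promoter peaks in all 6 libraries, and the states overlapped (75.8, 71.6 and 54.3 in PROLIF, 58.0, 61.7 and 71.9 in DIFF), while *Cdh5*, *Cldn5* and *Tie1* had none in any. The mural and fibroblast markers with a promoter peak numbered 2 to 4 in PROLIF and 3 to 4 in DIFF. Their part in the *Lama4* result was not tested.

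The sequences shown next are the 250 bases before the *Lama4* start, which reach into its PROLIF-only region, and 201 bases around the summit of the region near its internal start (plus strand of GRCm38). Capitals here and in later sequences mark any match, on either strand, to AP-1 (TGACTCA), NFI (TTGGCA), SOX (ACAAAG or ACAATG), the E-boxes CAGCTG and CAGATG or TEAD (ACATTCC). The first stretch, which ends before the summit of the region over the start, held no match, while SOX and CAGATG letters lay within 100 bp of that summit. The second held 1 CAGCTG.
*Lama4* before its start, chr10:38965265-38965514: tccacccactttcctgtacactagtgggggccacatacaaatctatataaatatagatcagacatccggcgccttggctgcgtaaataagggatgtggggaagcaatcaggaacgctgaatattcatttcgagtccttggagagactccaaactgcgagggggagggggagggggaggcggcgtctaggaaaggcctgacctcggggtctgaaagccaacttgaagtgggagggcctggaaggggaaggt
*Lama4* PROLIF-only, internal start, chr10:39106950-39107150: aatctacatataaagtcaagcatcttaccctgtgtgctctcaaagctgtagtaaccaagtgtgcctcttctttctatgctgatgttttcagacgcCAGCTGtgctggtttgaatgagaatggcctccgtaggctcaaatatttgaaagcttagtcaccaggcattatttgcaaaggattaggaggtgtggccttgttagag

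**Figure D2:**
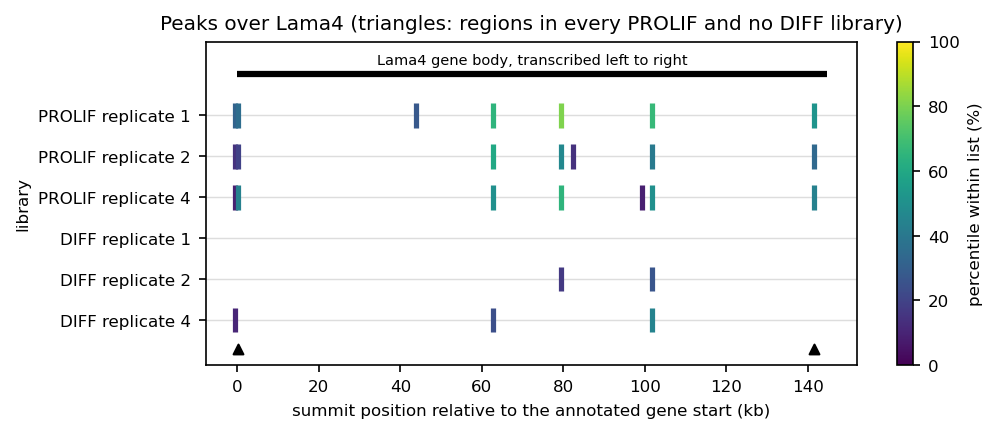
Each tick is a peak region over *Lama4*, placed by its summit along the gene (kb from the annotated start) in each of the 6 libraries and coloured by percentile. The 3 PROLIF libraries show 7 regions each and the DIFF libraries 0, 2 and 3, and both triangles mark regions that all PROLIF and no DIFF libraries held.

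The other laminin alpha genes differed less. *Lama2*, the alpha chain of muscle and glial basement membranes, had its strongest promoter peaks at percentiles 41.8, 44.1 and 20.3 in PROLIF and 7.67, 11.7 and 20.0 in DIFF, without overlap (35.4 ± 13.1 against 13.1 ± 6.26, exact permutation p = 0.1). The closest libraries were at 20.3 and 20.0, the gene was not called with lists of equal length, and the peaks lay at different starts. In PROLIF the strongest was at an internal start, chr10:27054381-27054771, which no DIFF library listed, whereas near the first start (chr10:27616683-27616924) all DIFF libraries and PROLIF replicate 1 (12.9) had a peak. The *Lama1* promoter was also higher in every PROLIF library, with a mean DIFF minus PROLIF difference of -3.20 percentile points (98.6, 97.5 and 97.0 against 96.8, 91.4 and 95.3). The difference was -1.65 points without DIFF replicate 2, and ranked by fold enrichment it was -1.46 and no longer called. *Lama5*, a broadly expressed alpha chain, went the other way, with 66.3, 62.7 and 64.5 in PROLIF and 68.8, 75.0 and 82.2 in DIFF (exact permutation p = 0.1), a call that was lost with lists of equal length. *Lama3*, a chain of the laminin that holds epithelia to the skin's basement membrane, had promoter peaks in 5 of 6 libraries and carried 1 PROLIF-only and 2 DIFF-only intronic regions.

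Among the beta chains, *Lamb2* was level (83.9 to 84.9 in PROLIF, 82.3 to 87.8 in DIFF). *Lamb1* had promoter peaks in all PROLIF libraries (44.6, 42.7 and 25.9) and in DIFF replicates 1 and 2 (29.3 and 28.4). The *Lamb3* promoter was at 96.3, 91.4 and 90.5 in PROLIF and 86.2, 86.2 and 85.0 in DIFF (exact permutation p = 0.1), but that peak stood 65409 bp into the annotated gene, at a non-coding start within 3 kb of the start of *G0s2*, so it cannot be told apart from the promoter of that gene. With starts of protein-coding transcripts only, the *Lamb3* difference turned round, to 16.3 points higher in DIFF. A *Lamb3* intron near the 3′ end, chr1:193338028-193339104, had percentiles of 98.5, 97.1 and 94.9 in PROLIF and 67.4, 76.1 and 82.0 in DIFF, with folds over background of 14.5, 11.6 and 10.6 against 5.30, 8.15 and 7.87.

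Of the gamma chains, *Lamc1* was high in every library. It also held a DIFF-only exonic region, chr1:153219439-153219656. *Lamc3* had promoter peaks in 1 library of each state (12.9 and 18.8).

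Numbers of occupied regions separated the states at 5 further genes. Over all genes with a region, 6.8% had more occupied regions in every DIFF library and 1.57% in every PROLIF library. Among the 53 genes these were 4 (7.55%) and 2 (3.77%). The 4 higher in DIFF were *Col5a1*, a fibrillar chain that nucleates type I fibrils (5, 4 and 3 regions in PROLIF, 8, 7 and 7 in DIFF), *Col8a2*, a network-forming chain of corneal and vascular matrix (1, 3 and 2 against 4, 5 and 5), *Col11a2*, a partner of *Col11a1* (2, 1 and 2 against 4, 5 and 4), and the FACIT *Col14a1* (5, 5 and 5 against 6, 6 and 6). Beside *Lama4*, *Col6a5* was higher in PROLIF (4, 3 and 3 against 2, 2 and 2). Each had p = 0.1 by the exact permutation test. Dropping a library makes this criterion easier to meet, and the count higher in DIFF rose to 13 without PROLIF replicate 1 and to 9 without DIFF replicate 1, while that in PROLIF was 4 without PROLIF replicate 2, 7 without PROLIF replicate 4, 4 without DIFF replicate 2 and 4 without DIFF replicate 4. With lists of equal length 2 genes were called towards DIFF and 4 towards PROLIF, and only *Col5a1*, *Lama4* and *Col6a5* of the 6 genes were still called.

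**Figure D3:**
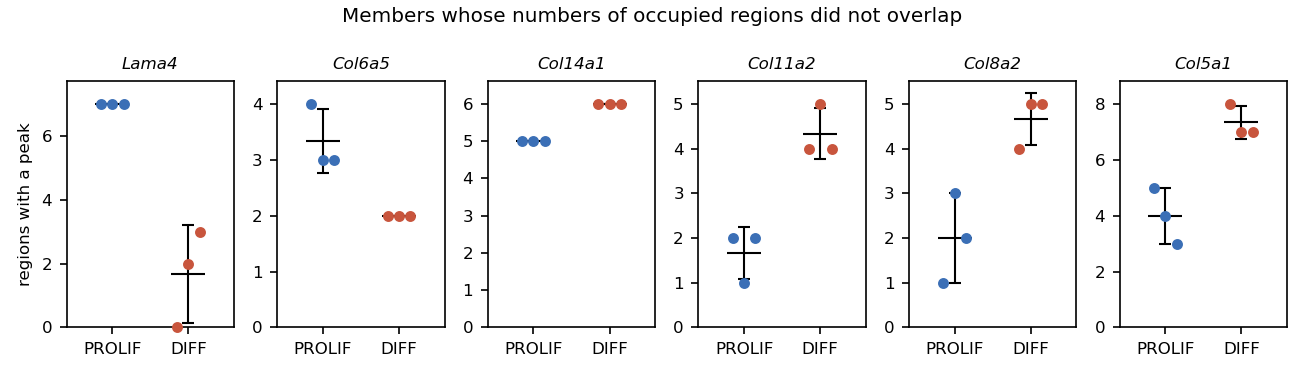
Points give the number of regions with a peak in each library for the 6 genes whose states did not overlap, with the mean and SD (bars, n = 3 a state). *Lama4* had 7 in every PROLIF library and at most 3 in DIFF, and *Col5a1* at most 5 in PROLIF and at least 7 in DIFF.

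*Col8a2* was the only one of the 53 genes with promoter peaks in all 3 libraries of a state and in none of the opposite state. No PROLIF library listed a peak there, and the DIFF libraries did at percentiles 44.5, 26.4 and 27.99. Its DIFF-only region chr4:126287389-126287805 lay 673 bp past the start, at percentiles 44.5, 26.4 and 10.7. The 27.99 of DIFF replicate 4 thus came from another promoter peak of the gene. Among all genes, 0.384% had promoter peaks in all DIFF and no PROLIF libraries and 0.231% the reverse, so that 1 and 0 of 53 are too few to read further. *Col11a2* had a DIFF-only region with its summit at -824 bp from its start (chr17:34038455-34038790; 5.25, 47.9 and 54.5), which also lies within 3 kb of the start of *Rxrb*, and a second past its 3′ end (chr17:34077667-34077858).

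Where a promoter was occupied in all 6 libraries, its percentile was compared between the states. Of the 33 genes, 7 (21.2%) were higher in every DIFF library, against 26.6% of all genes, and 5 (15.2%) were higher in every PROLIF library, against 4.68% of all genes. The median DIFF minus PROLIF difference was 1.51 points for these genes and 2.33 points for all genes. Promoters of the 33 genes ranked lower, with library medians of 64.6 to 77.7 in PROLIF and 73.9 to 79.2 in DIFF. Over all genes the medians were 83.1 to 88.0 and 87.5 to 90.0, and the shares were not matched for strength. The 7 were the fibrillar chains *Col2a1* and *Col5a1*, *Col9a1* and *Col9a2* of type IX collagen, *Col4a2*, the transmembrane *Col23a1* and *Lama5*. The 5 were *Col24a1*, *Col6a3*, *Lama1*, *Lama2* and *Lamb3*. Each call had p = 0.1 by the two-sided exact permutation test. The count higher in DIFF rose to 12 without PROLIF replicate 1, and that in PROLIF rose to 8 without DIFF replicate 4 and fell to 3 with protein-coding starts only. With lists of equal length the counts were 7 and 8, with 6 and 4 of the genes above among them.

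The widest promoter difference towards DIFF was at *Col2a1*, the fibrillar collagen of cartilage, with 45.9, 31.3 and 24.1 in PROLIF and 59.5, 64.7 and 69.0 in DIFF (33.8 ± 11.1 against 64.4 ± 4.75, SD, n = 3). Its strongest peaks were at starts of internal non-coding transcripts. At the one such region occupied in all 6 libraries, chr15:98001856-98002738, the percentiles were 37.3, 17.1 and 24.1 in PROLIF and 59.5, 55.2 and 47.8 in DIFF. This region also lay within 3 kb of the first annotated start of *Col2a1*. With protein-coding starts only, the *Col2a1* difference was 27.99 points in place of 30.6, and the gene was still called towards DIFF. Of the type IX genes, whose product coats type II fibrils, *Col9a1* was at 85.3, 73.7 and 64.6 in PROLIF and at 90.0, 89.4 and 90.7 in DIFF, with its peak at an internal non-coding start 52989 bp into the gene. Its call was lost when peaks were ranked by fold enrichment, and with protein-coding starts only its promoter was not occupied in all 6 libraries. *Col9a2* was at 91.4, 84.5 and 77.6 against 92.4, 95.9 and 95.9, and its mean difference went from 10.3 to 6.84 points without PROLIF replicate 4. The third chain, *Col9a3*, was level. *Col5a1* was at 71.1, 74.4 and 76.4 against 80.7, 81.8 and 87.6. Towards PROLIF, *Col24a1*, a minor fibrillar collagen, went from 72.6, 58.0 and 64.5 to 50.2, 16.9 and 52.2, and *Col6a3* from 84.5, 85.3 and 91.9 to 78.3, 73.9 and 78.0, the latter at an internal non-coding start and not called with protein-coding starts only. Without DIFF replicate 2, the *Col24a1* difference was -13.9 points in place of -25.3. That of *Col23a1* was 5.27 points without PROLIF replicate 4, in place of 8.01.

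**Figure D4:**
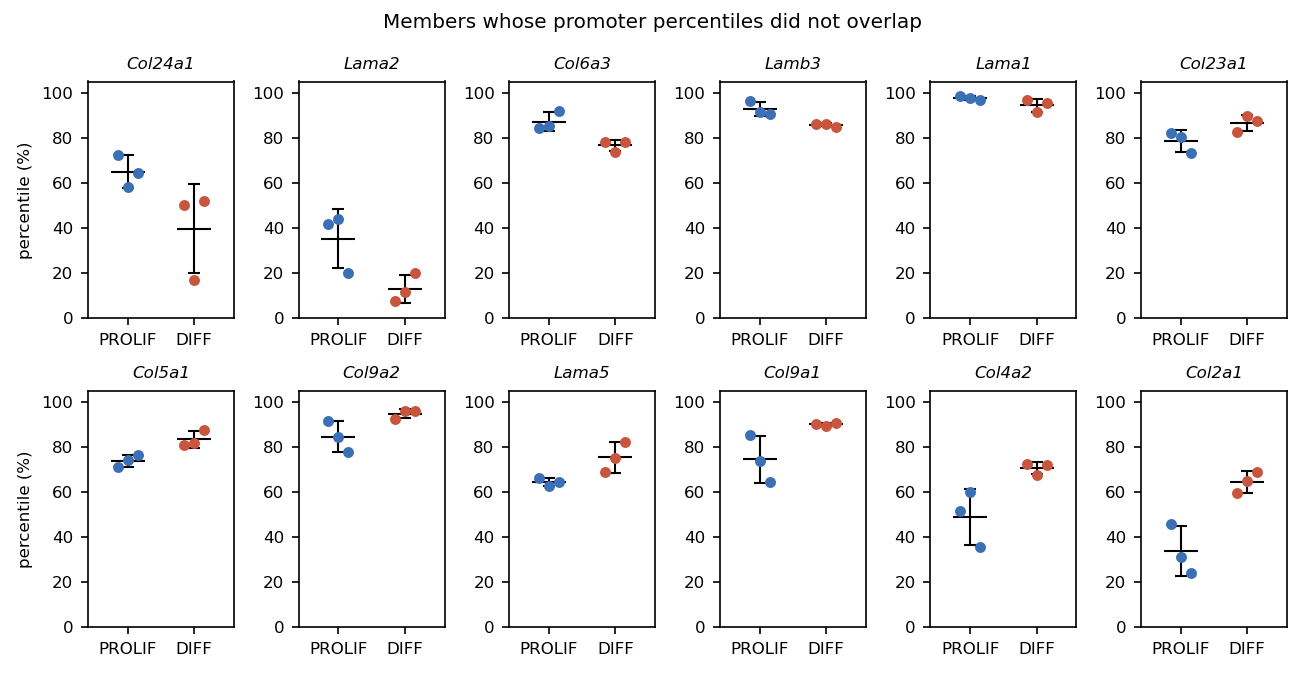
Points give the percentile (%) of the strongest promoter peak in each library for the 12 genes whose states did not overlap, with the mean and SD (bars, n = 3 a state), ordered by the difference. *Col24a1* and *Lama2* were lowest in DIFF relative to PROLIF, and *Col2a1* was at most 45.9 in PROLIF and at least 59.5 in DIFF.

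Type IV collagen, the basement membrane network, is encoded by gene pairs that point away from each other from a shared promoter. *Col4a1* and *Col4a2* shared the region chr8:11312289-11313217, at 51.7, 59.9 and 35.5 in PROLIF and 49.0, 44.1 and 50.6 in DIFF, so the states overlapped at the shared promoter itself. The higher *Col4a2* values in DIFF came from an internal non-coding start 93110 bp into the gene, chr8:11405633-11406092, and with protein-coding starts only the difference became -1.11 points. An intron of *Col4a2*, chr8:11418837-11419919, stood at 68.1, 78.8 and 64.7 in PROLIF and 91.4, 91.2 and 89.9 in DIFF. *Col4a3* and *Col4a4*, the chains of the mature kidney network, shared chr1:82586543-82587358, which overlapped between the states (66.4, 52.9 and 54.1 against 61.8, 36.2 and 58.7). A distal region past the 3′ end of *Col4a4*, chr1:82428951-82429586, went from 93.0, 89.9 and 75.4 to 21.4, 46.0 and 47.9, the largest difference towards PROLIF of any member region occupied in all 6 libraries.

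Regions occupied in all 6 libraries were compared in the same way by class, a comparison added after the values were seen. Among 44 promoter regions, 10 (22.7%) were higher in every DIFF and 5 (11.4%) in every PROLIF library, against 24.7% and 6.27% for all genes. Among 74 intronic regions these were 18 (24.3%) and 13 (17.6%), against 20.3% and 15.9%. Among 24 distal regions they were 4 (16.7%) and 4, against 18.8% and 12.4%. Introns of *Col27a1* (chr4:63315977-63316825; 90.3, 80.6 and 87.6 in PROLIF, 53.9, 42.4 and 37.5 in DIFF) and *Col19a1* (chr1:24553508-24554010; 81.7, 72.9 and 65.5 against 51.7, 19.8 and 36.3) had the largest mean differences towards PROLIF among introns. An intron of *Col14a1* (chr15:55510973-55511402) went from 12.9, 24.97 and 3.68 to 44.5, 30.5 and 65.8, and a distal region at -9027 bp from the start of *Col6a1* (chr10:76734967-76735467) from 50.4, 55.4 and 33.8 to 76.1, 76.1 and 77.5. A distal region at -7292 bp from the start of *Col1a1* (chr11:94928822-94929172) went from 68.6, 65.9 and 35.5 to 29.3, 16.9 and 6.02. A narrow intronic region of *Lama1* (208 bp, chr17:67741361-67741568) and one of *Lamb3* (115 bp, chr1:193227811-193227925) reached percentiles of 98.8 to 99.9 and 97.9 to 99.9 in the 6 libraries, at up to 33.1 and 35.1 times background. Whether such regions had been screened against a blacklist is not given in the sources used here.

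Some regions were occupied in all 3 libraries of a state and were missing from all 3 of the opposite state (PROLIF-only or DIFF-only). Collagen and laminin windows held 17 PROLIF-only regions (3.24% of 524) in 13 genes and 21 DIFF-only regions (4.01%) in 17 genes, against 1.64% and 3.65% of the regions of all genes. At promoters 5 of 115 (4.35%) were PROLIF-only and 3 (2.61%) DIFF-only, against 0.979% and 2.06%. In introns there were 7 and 14 of 308 (2.27% and 4.55%), against 2.03% and 4.77%. Among distal regions there were 5 and 2 of 86 (5.81% and 2.33%), against 1.85% and 3.6%. The 11 laminin genes held 8 PROLIF-only and 4 DIFF-only regions of 114 (7.02% and 3.51%), and the 42 collagen genes 9 and 17 of 410 (2.20% and 4.15%). Neither split was tested. With lists of equal length the balance turned, to 26 PROLIF-only and 17 DIFF-only regions. The shares over all genes were not computed at equal length, so whether they turn as well is not known. The counts are sensitive to single libraries, since dropping one makes the rule easier to meet. PROLIF-only regions numbered 31 without PROLIF replicate 4, and DIFF-only regions 32 without PROLIF replicate 1 and 38 without DIFF replicate 1.

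**Figure D5:**
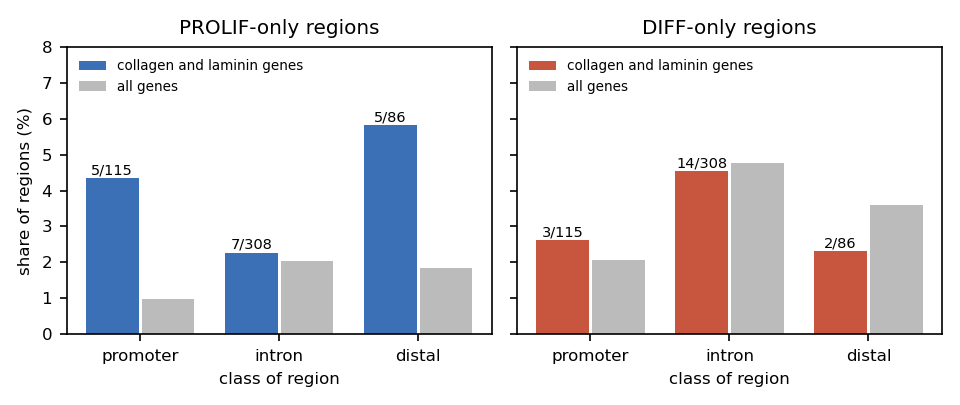
Bars give the share (%) of promoter, intron and distal regions that were PROLIF-only or DIFF-only in collagen and laminin windows (coloured, with counts) and in the windows of all protein-coding genes (grey). The coloured PROLIF-only bars stood above the grey ones at promoters and distal regions, while intronic shares lay near the background in both panels.

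By class and library, member promoters occupied 90, 74 and 63 regions in PROLIF and 72, 69 and 74 in DIFF, introns 198, 149 and 129 against 161, 170 and 201, and distal regions 60, 49 and 45 against 40, 47 and 54. The states overlapped in each. Per 1000 autosomal peaks of the library, distal member regions were 0.747, 0.757 and 0.773 in PROLIF and 0.576, 0.683 and 0.631 in DIFF, without overlap, and promoter regions 1.12, 1.14 and 1.08 against 1.04, 1.00 and 0.865, also without overlap (exact permutation p = 0.1 each, a scale chosen after the values were seen). The same shares over all genes overlapped, at 125 to 132 distal and 267 to 311 promoter regions per 1000 peaks in PROLIF and 128 to 132 and 257 to 286 in DIFF.

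The 3 PROLIF-only regions with the highest lowest percentile are shown, since they carry the PROLIF side of the comparison, as 201 bases around the summit on the plus strand of GRCm38. *Col16a1*, a FACIT, had its region 2795 bp past the start (77.7, 57.1 and 78.7). *Col28a1*, a collagen of peripheral nerve, had an intronic one (76.4, 46.8 and 66.7, at 10.3, 5.58 and 7.80 times background), and *Col11a1* had one past its 3′ end (69.3, 55.2 and 43.4).
*Col16a1* PROLIF-only, chr4:130050535-130050735: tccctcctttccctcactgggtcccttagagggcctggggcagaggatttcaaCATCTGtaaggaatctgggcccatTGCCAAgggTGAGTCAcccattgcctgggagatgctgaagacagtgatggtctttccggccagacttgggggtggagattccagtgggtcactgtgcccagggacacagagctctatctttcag
*Col28a1* PROLIF-only, chr6:8174144-8174344: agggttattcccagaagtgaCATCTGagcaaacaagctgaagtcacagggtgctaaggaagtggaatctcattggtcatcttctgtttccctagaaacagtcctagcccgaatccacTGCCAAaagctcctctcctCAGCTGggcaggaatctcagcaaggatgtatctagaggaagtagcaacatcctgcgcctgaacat
*Col11a1* PROLIF-only, chr3:114229670-114229870: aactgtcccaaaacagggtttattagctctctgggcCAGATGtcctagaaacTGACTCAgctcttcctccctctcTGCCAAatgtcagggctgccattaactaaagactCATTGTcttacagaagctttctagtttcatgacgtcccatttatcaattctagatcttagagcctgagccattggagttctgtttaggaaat

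Further PROLIF-only regions lay in an intron of *Col6a5* (59.0, 39.2 and 61.5), past the 3′ end of *Col4a1* (33.3, 31.4 and 40.97) and in an intron of *Col25a1* (44.6, 19.9 and 49.9).

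On the DIFF side, 5 of the 7 strongest regions are shown in the same way, a region at an internal start of the transmembrane *Col13a1* (46.2, 60.2 and 69.8), an intron of *Col8a1*, the partner of *Col8a2* (44.5, 46.9 and 55.3), an intron of *Col5a1* (37.7, 60.9 and 40.1) and a pair of introns of *Col22a1*, a FACIT of tissue junctions (44.5, 40.0 and 65.8 at chr15:71806698-71807345, and 35.8, 45.6 and 54.4 at chr15:72010255-72011337).
*Col13a1* DIFF-only, chr10:61879497-61879697: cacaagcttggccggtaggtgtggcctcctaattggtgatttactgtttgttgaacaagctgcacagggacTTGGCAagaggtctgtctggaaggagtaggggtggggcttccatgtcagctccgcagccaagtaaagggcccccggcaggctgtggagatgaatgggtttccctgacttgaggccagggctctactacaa
*Col8a1* DIFF-only, chr16:57740277-57740477: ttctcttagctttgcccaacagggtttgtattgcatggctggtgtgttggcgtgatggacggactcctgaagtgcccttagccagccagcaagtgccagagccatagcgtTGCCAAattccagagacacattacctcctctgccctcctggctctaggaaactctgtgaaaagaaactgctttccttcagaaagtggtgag
*Col22a1* DIFF-only, chr15:71807016-71807216: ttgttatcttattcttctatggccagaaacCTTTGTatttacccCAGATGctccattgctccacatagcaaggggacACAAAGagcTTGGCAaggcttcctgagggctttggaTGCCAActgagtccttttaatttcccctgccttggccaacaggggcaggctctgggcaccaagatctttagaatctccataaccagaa
*Col5a1* DIFF-only, chr2:27926876-27927076: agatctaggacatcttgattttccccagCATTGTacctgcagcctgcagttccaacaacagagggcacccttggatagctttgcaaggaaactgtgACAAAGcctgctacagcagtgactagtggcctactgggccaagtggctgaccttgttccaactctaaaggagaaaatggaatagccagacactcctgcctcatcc
*Col22a1* DIFF-only, chr15:72010809-72011009: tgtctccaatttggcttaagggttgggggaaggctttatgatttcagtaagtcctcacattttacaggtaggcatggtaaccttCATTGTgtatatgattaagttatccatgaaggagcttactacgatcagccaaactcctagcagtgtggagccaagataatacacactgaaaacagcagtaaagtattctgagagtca

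The other DIFF-only regions among the 10 strongest were an exon of *Col5a1* (44.5, 51.6 and 55.3) and introns of *Lama3* (61.6, 44.1 and 63.8), *Col6a3* (32.0, 45.3 and 41.2), *Col27a1* (26.6, 52.4 and 48.7) and *Col23a1* (37.7, 26.4 and 44.8).

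Motif letters were counted in both sets, with no test of a difference. AP-1, the site of FOS and JUN factors, was within 100 bp of the summit in 7 of the 17 PROLIF-only member regions (41.2%) and in 1 of the 21 DIFF-only ones (4.76%), beside 5.78% of all 116783 autosomal regions, 27.9% of all PROLIF-only and 2.46% of all DIFF-only regions. *Col16a1*, *Col11a1*, *Col6a5*, *Col25a1*, *Lamb3*, *Col15a1* and *Col22a1* held the 7, and both *Lama4* regions held none. CAGATG was in 8 of 17 (47.1%) and 1 of 21 (4.76%), beside 17.3% of all regions, 28.3% of all PROLIF-only and 12.4% of all DIFF-only regions. CAGCTG was in 5 (29.4%) and 0, beside 19.6%, 33.8% and 15.4% of the same 3 sets. NFI letters were in 6 (35.3%) and 7 (33.3%), beside 18.4%, 19.3% and 32.9%. SOX letters were in 7 (41.2%) and 9 (42.9%), beside 29.2%, 37.8% and 30.1%. TEAD letters were in 0 and 3 (14.3%), beside 4.29%, 4.98% and 7.11%. NFI and SOX shares were thus close in both member sets. These are matches of letters, not bound sites, and matches of different motifs may share letters.

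The other genes of the pathway were read from a fixed list of 36. All 6 libraries listed a promoter peak for 8 of 13 receptor genes, 14 of 18 genes of collagen synthesis and processing and all 5 basement membrane partners, 27 in all, and no promoter was occupied in all 3 libraries of a state and absent from the opposite one. Of these 27, *Plod3* and *Adamts14* were higher in every DIFF library (2 genes, 26.6% over all genes) and *Itga1*, *Itgb1*, *Ddr1*, *P4ha2*, *Nid1* and *Nid2* in every PROLIF library (6 genes, 4.68%). The closest libraries were at 82.64 and 82.62 for *P4ha2*, 43.28 and 43.24 for *Nid1* and 97.12 and 96.97 for *Itgb1*. No alternative was run for the genes of this list. Genes without a promoter peak in at least 1 library were not compared. Among them *Loxl1* had none, 6.70 and 28.5 in PROLIF and 62.0, 73.5 and 78.1 in DIFF. *Pcolce* went the other way, with 44.6, none and 39.7 against none, none and 10.7. *Itga1*, an integrin chain that binds collagen and laminin, was at 89.6, 93.2 and 89.3 in PROLIF and 78.6, 74.1 and 81.5 in DIFF. *Nid2*, a nidogen that links laminin to type IV collagen, was at 95.8, 96.7 and 95.6 against 92.5, 94.3 and 94.4. *Plod3*, a lysyl hydroxylase, was at 80.6, 74.0 and 62.1 against 87.3, 84.8 and 86.7. More occupied regions in every DIFF library were seen for 4 of the 36 (6.8% over all genes) and in every PROLIF library for none (1.57%), a count of 0.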

How the data were processed

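The 6 ATAC-seq libraries were grouped by the state and number in the labels. For each library separately, the authors deposited a list of narrow peaks (MACS2, false discovery rate 0.05), after trimming (Cutadapt, Trimmomatic), Bowtie2 alignment to the mm10 build GRCm38 and duplicate marking by Picard. Versions, any transposase shift and any blacklist are not given in the sources used here, and each can move edges and numbers of peaks. Per the deposited lists, the score is about 10 times the −log10 q, the fold enrichment is a ratio to local background, and −log10 p and q are against that background. Peaks, regions and starts were handled in Python 3.11.15 (pysam 0.24.0, scipy 1.17.1, pandas 2.3.3, matplotlib 3.10.9, numpy 2.4.6). The background pileup is percentile 1, per library, of the values that give a peak its fold and Poisson p. Read totals were not used here, and depth limits which weak peaks were listed.

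The members, lists and motifs were chosen with earlier results of these data known. Named were members with a state-only promoter, the 5 strongest promoters, members without promoter peaks, members whose states did not overlap, up to 10 state-only regions a state (up to 5 with sequence), the 5 members with most regions, the type IV pairs and the laminins. Values of 1 gene are not reported here beyond the totals. Other regions and genes were named after their values were seen, and so were the comparison of regions in all 6 libraries and the shares per 1000 peaks chosen. The rules were tested on simulated lists. Alternatives were q of at most 0.01, equal list lengths, promoters of 1 kb, a cover of 50%, windows of the gene body or 50 kb, ranking by fold enrichment, each library left out, the replicate block and, added after seeing the data, protein-coding starts only. Sequences were read from the RefSeq GRCm38.p6 genome.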

Additional observations from a re-analysis of the deposited data

How the results depend on the processing

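The number of genes with a promoter peak in all 6 libraries stayed between 26 and 36 under every alternative run. With lists of equal length (58188 autosomal peaks each), PROLIF-only regions rose from 17 to 26, genes with more occupied regions fell from 4 to 2 in the DIFF direction and rose from 2 to 4 in the PROLIF direction, and genes with a higher promoter percentile in PROLIF rose from 5 to 8, while 7 stayed the count in DIFF. Shares over all genes were not computed under the alternatives. Genes with more occupied regions in PROLIF numbered 4 over gene bodies alone and 1 with 50 kb on either side, where *Lama4* was the one called. With protein-coding starts only, 3 genes had a higher promoter percentile in PROLIF, and the difference turned round for *Lamb3* (16.3) and *Col4a2* (-1.11). *Col9a1* and *Col6a3* under that setting, and *Lama2* with lists of equal length, lacked a promoter peak in at least 1 library, so they gave no value and their calls were lost. Leaving out single libraries gave 18 to 31 PROLIF-only and 21 to 38 DIFF-only regions, 4 to 13 and 2 to 7 genes with more occupied regions in DIFF and PROLIF, and 7 to 12 and 5 to 8 genes with a higher percentile in DIFF and PROLIF, as the rules then ask for fewer libraries. Of the 183 other values that could be computed for single genes, 172 kept their direction and their call, 9 kept the direction only and 2 reversed. These genes were picked for states that did not overlap. Leaving out a library or using the replicate block then keeps a percentile call by construction, and a call on region numbers nearly so. Such values make up most of the 183 and are no check of the calls.

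The labels do not say that a shared number marks the same animal or culture. Deviations of occupancy correlated at 0.0249 to 0.0351 between same-numbered libraries and at -0.0273 to -0.00656 between others. Deviations of the percentile correlated at 0.0122 to 0.152 between same-numbered libraries and at -0.112 to 0.0611 between others, so that not every pair passed 0.1 and the numbers were not taken as pairs. Under the replicate block a state-only region needed a difference in 2 of 3 same-numbered pairs with no pair opposed, a looser rule that gave 53 regions for PROLIF and 64 for DIFF. For gene values the block asked for the same direction in all 3 pairs, which gave 6 and 4 genes with more occupied regions in DIFF and PROLIF and 9 and 8 with a higher percentile.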
